A study of Mus musculus with 6 samples.

Results

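The 31 genes described here make cholesterol, sense it, take it up, move it inside the cell and export it. They were chosen by name, with earlier results of these data known. Every probe set whose only platform gene symbol was one of these names was taken, which gave 67 of the 45101 probe sets on the array. These 67 probe sets belong to 29 of the 31 genes, out of 18193 genes named on the array, and 60 of them, with at least 1 for each of the 29, were bright enough to be tested. Acat2, which makes acetoacetyl-CoA, and Soat1, which esterifies cholesterol for storage, were not analysed here. The cells were C3H10T1/2, a mouse mesenchymal line. The treated group had 3 samples given 50 ng/ml BMP4, a secreted bone morphogenetic protein, while the cells proliferated, and the control group had 3 samples without BMP4. RNA of both groups was taken after confluence and hybridised to 1 single-colour array per sample. Whether the 3 samples of a group came from different cultures is not stated in the labels, and p-values therefore cover only the variation among these samples, part of which may be technical.

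Cells build cholesterol from acetyl-CoA in a chain of enzymes that has branches. The mevalonate steps make the isoprenoid farnesyl diphosphate, the squalene steps join and close it into lanosterol, and the sterol ring steps trim lanosterol to cholesterol. The genes of these enzymes are known targets of the transcription factors SREBP1 and SREBP2, encoded by Srebf1 and Srebf2. When sterol is low the escort protein Scap carries the SREBPs from the endoplasmic reticulum to the Golgi, where they are cut and released, and when sterol is high the Insig proteins hold Scap back. SREBPs are known to act at sterol response elements together with NF-Y, a factor that binds CCAAT boxes. Cholesterol surplus leaves the cell through the transporters Abca1 and Abcg1, which are known targets of the liver X receptors.

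The promoters of 3 members are shown, because the enzymes of this chain are known to share such elements. They are RefSeq sequences of GRCm38.p6, and each runs from 250 bases before to 50 bases after the annotated transcript start. Capitals mark matches to the sterol response motif TCACNCCAC or to CCAAT on either strand, so a CCAAT box on the opposite strand reads ATTGG. Hmgcs1 (chr13:119690101-119690400, plus strand) was the only one of the 24 members with a promoter sequence whose window held TCACNCCAC. Msmo1 (chr8:64733529-64733828, minus strand) had the largest log2 change of the members. Abca1 (chr4:53159846-53160145, minus strand) is an exporter. The last pair was chosen after their values were seen.
Hmgcs1: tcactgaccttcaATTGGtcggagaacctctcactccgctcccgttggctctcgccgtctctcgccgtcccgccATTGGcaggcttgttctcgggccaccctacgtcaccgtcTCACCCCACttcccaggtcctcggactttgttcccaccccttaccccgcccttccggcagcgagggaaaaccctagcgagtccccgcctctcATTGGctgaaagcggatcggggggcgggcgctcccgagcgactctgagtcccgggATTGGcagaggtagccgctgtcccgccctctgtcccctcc
Msmo1: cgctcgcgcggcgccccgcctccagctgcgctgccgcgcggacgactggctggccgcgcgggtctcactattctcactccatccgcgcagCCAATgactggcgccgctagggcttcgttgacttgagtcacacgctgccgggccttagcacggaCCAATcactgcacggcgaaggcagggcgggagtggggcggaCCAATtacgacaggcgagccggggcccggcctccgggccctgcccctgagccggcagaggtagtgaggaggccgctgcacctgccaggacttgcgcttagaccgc
Abca1: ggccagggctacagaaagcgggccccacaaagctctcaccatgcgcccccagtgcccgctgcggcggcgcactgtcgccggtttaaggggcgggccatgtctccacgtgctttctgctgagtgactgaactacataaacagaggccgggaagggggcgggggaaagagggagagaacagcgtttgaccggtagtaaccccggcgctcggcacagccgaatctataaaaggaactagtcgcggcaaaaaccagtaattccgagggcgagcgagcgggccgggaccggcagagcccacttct
In the Hmgcs1 window TCACCCCAC begins 137 bases before the start, among 4 CCAAT boxes that do not overlap it. The Msmo1 window has 3 CCAAT boxes and no exact sterol response motif, and the Abca1 window has neither. Of the 31 members 24 had a promoter sequence, some with several start sites. Fdps, Fdft1, Sqle and Stard4, all higher with BMP4, had none and were not searched. Nor were Npc1, Abcg1 and Scarb1. CCAAT was present in 21 of these 24 genes (87.5%), against 42.8% of the 10450 genes tested on the arrays that had a promoter. TCACNCCAC was present in 1 of the 24 (4.17%), against 1.41% of the same 10450 genes. With 1 mismatch allowed it was present in 10 of the 24 (41.7%), against 29.4%. All 8 members with a promoter that were higher with BMP4 had a CCAAT box, as did 12 of the 14 that were not past the test. A match describes letters in a window and is not evidence of a bound site.

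The 2% trimmed mean of the signals was 150 on every array. Of the probe sets other than controls, 56 to 59% on the BMP4 arrays and 54.4 to 55.7% on the control arrays lay above 29.1. That was the highest signal of 27 bacterial control probe sets, those for the dap, lys, phe, thr and trp genes. It is used here as the level of background, and the other control probe sets did not enter it. Correlations of log2 signals were 0.9775 to 0.9811 among BMP4 arrays, 0.9829 to 0.9848 among control arrays and 0.9711 to 0.9768 across the groups. All 7 named mesenchymal markers of 8 listed were above 29.1, with summed signals of 40913.1 to 47697.6 with BMP4 and 34236.9 to 42994 without it. Of 8 listed adipocyte markers 6 were named and 4 were above background, with summed signals of 611.7 to 649.5 with BMP4 and 290 to 337.2 without it, while Lep and Cidec were near 0 in both groups. Within that list Fabp4 (344.7 against 76.2) and Adipoq (88.8 against 16.8) were higher with BMP4, and Lpl (99.8 against 162) was lower (limma adjusted p = 0.0224). Their part in the changes below was not tested. The leukocyte list had 4 of 6 members above background and sums of 397.7 to 554.6 against 402.6 to 432.3, with its defining marker Ptprc under 7 on every array. Of the endothelial, epithelial and hepatocyte lists 3, 2 and 1 of 4 members each were above background. The endothelial sums were 118.3 to 190.5 with BMP4 and 204 to 213.7 without it. Among the endothelial markers Tek was lower with BMP4 (64.7 against 114.3, limma adjusted p = 0.0167). Cdh5 (34.1 against 33.3) and Kdr (45.1 against 58.7) were not past the test, and Pecam1 was far below background (3.9 against 3.8). In RNA from whole cultures, fewer cells of a type and less RNA per cell cannot be told apart.

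Of 18 tested genes in the mevalonate, squalene and sterol ring steps, 11 were higher in BMP4-treated cells and 7 were not past the test. The 7 include Ggps1, whose product leads away from cholesterol. None of the regulators and exporters was past the test on its brightest probe set, and the difference between these steps was not tested. A gene that is not past the test may still have changed, as each group has only 3 arrays. With limma (log2 of signal + 16, Benjamini-Hochberg adjustment over 27022 probe sets, threshold 0.05), 12 of the 29 tested members were higher and 0 were lower. Across all 12966 genes, each represented like the members by its brightest probe set, 5.03% were higher and 5.66% were lower. Over probe sets, 9.12% changed in either direction. Before adjustment, 19 members were higher and 2 were lower at a p under 0.05. The 12 comprised 4 of 7 mevalonate genes, 2 of 3 squalene genes, 5 of 8 sterol ring genes, 0 of 5 regulators, 1 of 4 genes of uptake and transport inside the cell, and 0 of 2 exporters. The median log2 change was 0.36 over the members, against 0.03 over all genes. It was 0.54 for mevalonate genes, 0.45 for squalene genes, 0.40 for sterol ring genes, 0.00 for regulators, 0.24 for uptake and transport, and 0.19 for the exporters. The exporter value lies midway between 2 genes of opposite sign, at -0.23 and 0.62. BMP4 and control arrays did not overlap for 20 of the 29 members, against 30.7% of all genes. Because the members were chosen with earlier results of these data known, these shares describe them and are not an independent test.

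**Figure D1:**
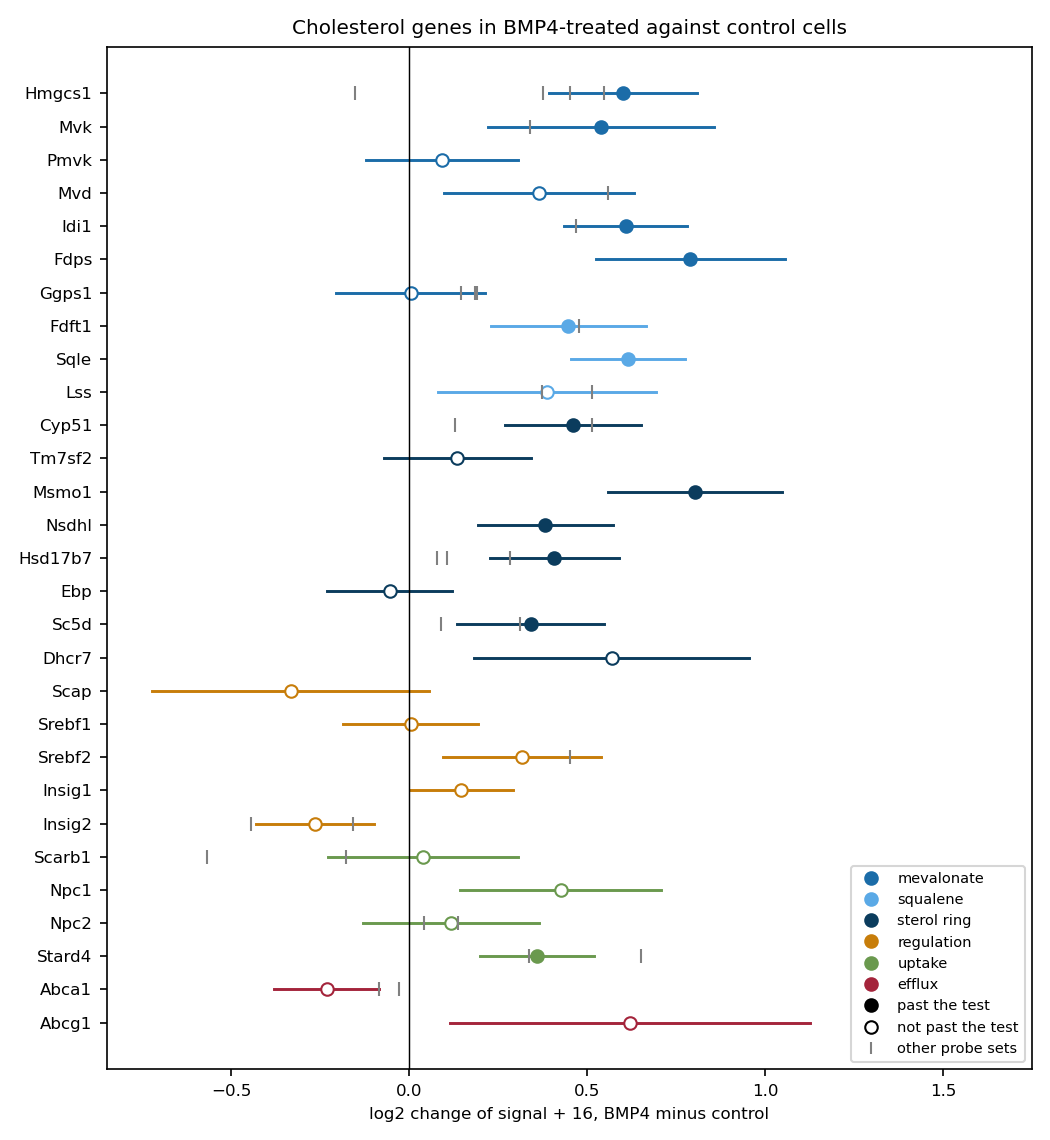
Log2 change of signal + 16, BMP4 minus control, for the brightest probe set of each of the 29 members (points, coloured by step) with its 95% interval (lines); filled points are past an adjusted p of 0.05 and grey ticks are the gene's other tested probe sets. The 12 filled points are all right of 0, and 11 of them belong to the mevalonate, squalene and sterol ring steps.

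The changes were modest in size. Msmo1, the member that changed most, was 192nd of the 12966 genes when these were ordered from the highest log2 change, and its change was 1.74-fold on the signal + 16 scale. Most of the members that rose lay between 1.27-fold, for Sc5d, and 1.53-fold, for Sqle, and Fdps reached 1.73-fold. The number of higher members was 12 also with quantile normalization, cyclic loess and robust eBayes, but not under all scalings and variance models. When each array was centred on its median, which puts BMP4 arrays 0.09 lower relative to controls on the log2 scale, 5 members were higher and 2 were lower, and 25.1% of all called probe sets were higher, against 46.1% as deposited. Without the intensity trend 5 members were higher as well. The 5 genes Hmgcs1, Fdps, Idi1, Sqle and Msmo1 were past the test in each of 17 alternatives, and the other 7 lost the call in at least 1.

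**Figure D2:**
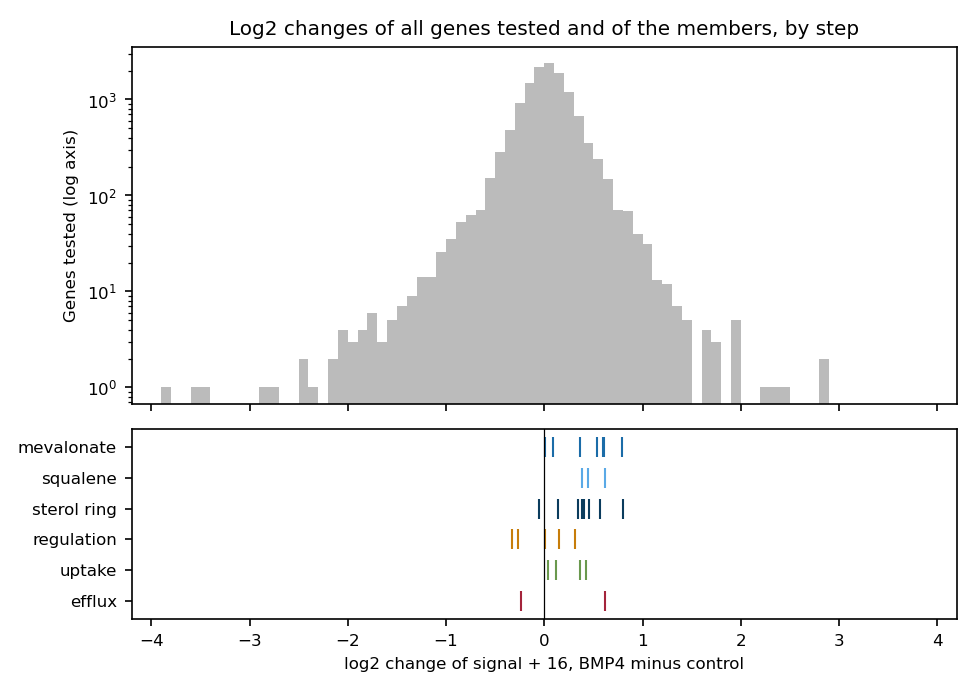
Upper panel, number of genes (log axis) by log2 change of signal + 16, BMP4 minus control, for the 12966 genes tested; lower panel, the 29 members as ticks by step on the same axis. The members lie between -0.33 and 0.80, inside the range of all genes, with the mevalonate, squalene and sterol ring ticks mostly right of 0.

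Among the mevalonate genes the clearest rises were at Hmgcs1, Idi1 and Fdps. Hmgcs1, which makes HMG-CoA from acetoacetyl-CoA, had signals of 3990.7, 3642.9 and 3766.1 with BMP4, against 2171.9, 2637.6 and 2721.5 in control cells. Every BMP4 array was above every control array, and the log2 change was 0.60 ± 0.09 (SE, limma adjusted p = 0.00216). Its next 3 probe sets in brightness gave log2 changes of 0.37 to 0.55, all past the test, and the dimmest, at background level, gave -0.15 (adjusted p = 0.709). Idi1, which isomerises isopentenyl diphosphate, had 820.4, 820.3 and 954.9 with BMP4, against 534.9, 558.8 and 589.5 without it. The lowest BMP4 array was well clear of the highest control array, with a log2 change of 0.61 ± 0.08 (adjusted p = 0.000575), and another probe set gave 0.47 (adjusted p = 0.00258). Fdps, which builds farnesyl diphosphate, had 1212.8, 1227 and 1404.6 with BMP4, against 588.3, 788.7 and 846.9 in controls. Control replicate 1 was the lowest array, the groups did not overlap, and the log2 change was 0.79 ± 0.12 (adjusted p = 0.00175). A further Fdps probe set was at background and was not tested.

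The remaining mevalonate genes were dimmer and less uniform. Mvk, the kinase that acts on mevalonate, had 223.2, 247 and 246.4 with BMP4, against 159.3, 123.5 and 204.1 without it. The groups did not overlap, the control arrays were spread widely, and the log2 change was 0.54 ± 0.14 (limma adjusted p = 0.0415). Over the alternatives its adjusted p ran from 0.00767 to 0.126, and the call was lost in 8 of 17, including when any of 5 of the 6 arrays was left out. Mvd, which makes isopentenyl diphosphate, had 148.3, 161.7 and 137.4 with BMP4, against 96.3, 117.2 and 124.3 in controls. These groups did not overlap either, yet the brightest probe set gave 0.36 (adjusted p = 0.0948) and was not past the test, while a slightly dimmer one gave 0.56 (adjusted p = 0.0187). Pmvk, the next kinase after Mvk, gave 0.09 with a 95% interval of -0.12 to 0.31. Ggps1 makes geranylgeranyl diphosphate and so leads away from cholesterol. It had 210.3, 233.7 and 244.7 with BMP4, against 235.8, 244.1 and 207.1 in controls, a log2 change of 0.00 (interval -0.20 to 0.21, adjusted p = 0.987), and its 3 other probe sets gave 0.14 to 0.19, none past the test.

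Of the 3 genes of the squalene steps, Sqle and Fdft1 rose. Sqle, the epoxidase and a rate-limiting enzyme of the pathway, had 1084.8, 1169 and 1204.9 with BMP4, against 716.3, 723.5 and 802.6 in control cells. Both groups were tight, and the log2 change of 0.62 ± 0.07 had the smallest adjusted p of the members (SE, limma adjusted p = 0.000315). Fdft1, the squalene synthase, had 627.6, 719.4 and 768.1 with BMP4, against 465.8, 490.9 and 584.2 without it. The groups did not overlap, with a log2 change of 0.45 ± 0.10 (adjusted p = 0.0165), and a second probe set gave 0.48 (adjusted p = 0.00238), while 2 others were at background and not tested. The Fdft1 call was lost in 6 of 17 alternatives, with adjusted p-values from 0.00444 to 0.0966. Lss, which closes the ring to lanosterol, had 335.1, 226.9 and 309.7 with BMP4, against 232.9, 184.7 and 232.8 in controls. BMP4 replicate 2 overlapped the controls, and this probe set was not past the test (0.39 ± 0.14, adjusted p = 0.122), and the other 2 gave 0.51 (adjusted p = 0.0663) and 0.37 (adjusted p = 0.219). Lss was past the test in 3 of 17 alternatives, which were leaving out BMP4 replicate 2 (0.55, adjusted p = 0.0207), a replicate block (0.39, adjusted p = 0.0312) and the mean of its probe sets (0.42, adjusted p = 0.0175), with a range of 0.0175 to 0.342 over all of them. Omitting any of BMP4 replicate 3 and control replicates 1 and 2 left 1 higher squalene gene, Sqle.

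In the sterol ring steps 5 of 8 genes rose. That number was 1 if arrays were centred on their medians, 1 if the intensity trend was dropped, 2 with the mean of each gene's probe sets, and 3 without BMP4 replicate 3 or control replicate 1. Msmo1, which oxidises the methyl groups at carbon 4, had 2253.3, 2031.8 and 2348.5 with BMP4, against 1036, 1368.1 and 1405.9 in controls. No BMP4 array came near the control range, and the log2 change was 0.80 ± 0.11 (SE, limma adjusted p = 0.000957); its other probe set was at background. Cyp51, the lanosterol demethylase, had 501.8, 592.6 and 605.5 with BMP4, against 436.5, 386.9 and 396.9 in controls. Its log2 change was 0.46 ± 0.09 (adjusted p = 0.00669), a second probe set gave 0.51 (adjusted p = 0.0144), and a dim one gave 0.13 (adjusted p = 0.801). Nsdhl and Hsd17b7 work with Msmo1 to remove those methyl groups. Nsdhl had 845.7, 822.2 and 1001.7 with BMP4, against 629.3, 702.7 and 699.2 in controls, which is 0.38 ± 0.09 on the log2 scale (adjusted p = 0.0178). Hsd17b7 had 403.3, 390.8 and 432.4 with BMP4, against 330.4, 279.3 and 304.5 in controls, a log2 change of 0.41 ± 0.08 (adjusted p = 0.0102). The groups did not overlap for either gene. The other 3 Hsd17b7 probe sets gave smaller values of 0.08 to 0.28, none past the test, so the size of this change differs between probe sets. Of 17 alternatives the call was lost in 3 for Cyp51, in 4 for Nsdhl and in 3 for Hsd17b7.

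Of the 4 remaining ring enzymes Sc5d was past the test. Sc5d, which puts in a double bond of the ring, had 469.8, 416.6 and 502.3 with BMP4, against 383.6, 381.8 and 321.3 in controls. It was the weakest of the 12 calls (0.34 ± 0.09, limma adjusted p = 0.0458), it was lost in 10 of 17 alternatives with adjusted p-values of 0.0316 to 0.178, and its other probe sets gave 0.31 (adjusted p = 0.122) and 0.09 (adjusted p = 0.603). Dhcr7, the reductase of the last step of one branch, had 144.5, 187.8 and 199.2 with BMP4, against 135.5, 130.2 and 81.4 in controls. Its groups did not overlap and its log2 change of 0.57 was as large as those of called genes, but it was not past the test (95% interval 0.18 to 0.96, adjusted p = 0.0728). Without BMP4 replicate 1 it was 0.70 and past the test (adjusted p = 0.044, with a range of 0.044 to 0.189 over its alternatives). Tm7sf2, a sterol reductase, had 187.5, 174.7 and 182 with BMP4, against 173.1, 166.9 and 151.8 in controls, a log2 change of 0.13 (interval -0.07 to 0.34, adjusted p = 0.436). Ebp, a sterol isomerase, had 613.3, 502.1 and 567.6 with BMP4, against 568.5, 593.4 and 583.3 in controls. It was the only synthesis gene with a value below 0 (-0.06, interval -0.23 to 0.12, adjusted p = 0.735), and its groups overlapped.

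**Figure D3:**
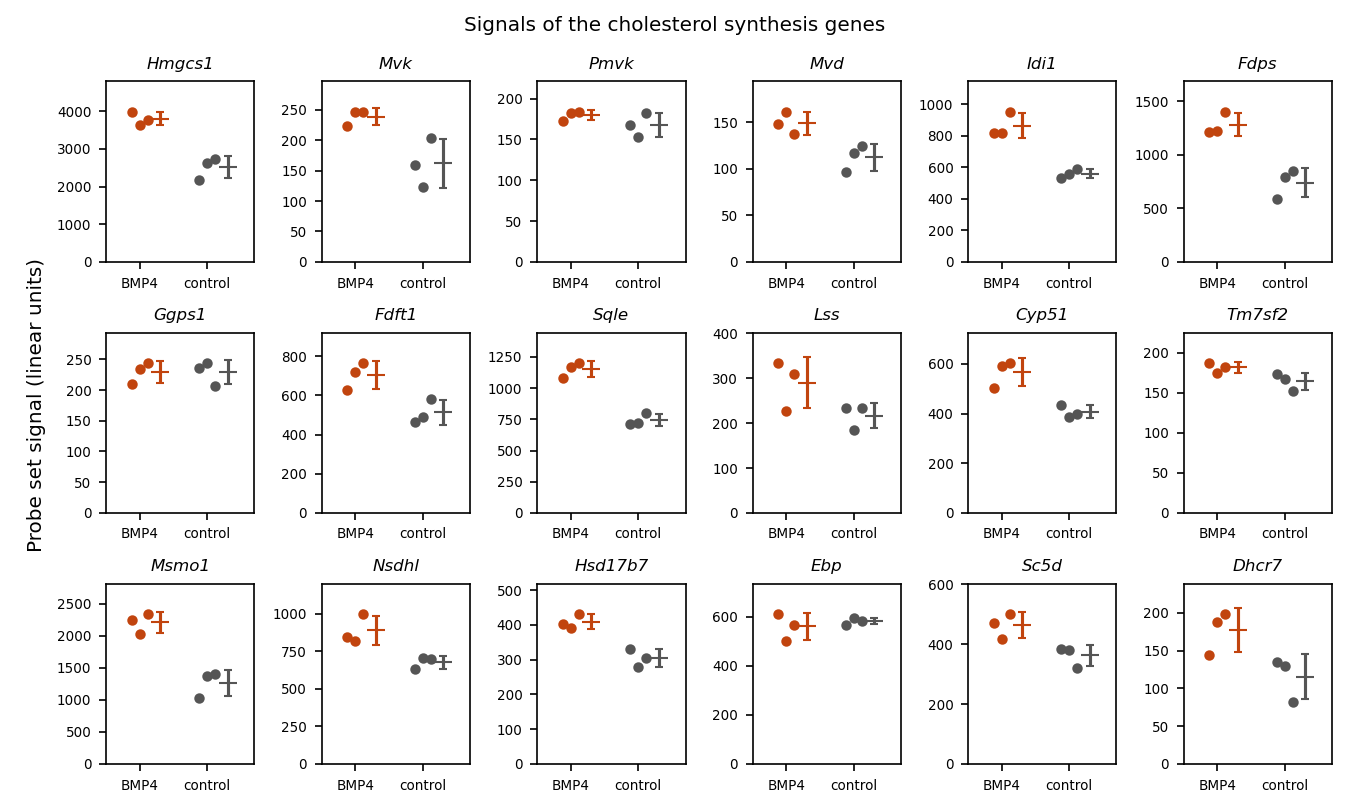
Probe set signal (linear units, axes from 0) of the 18 tested cholesterol synthesis genes on each BMP4 array (left) and control array (right), with the mean and SD of 3 arrays beside the points. For Hmgcs1, Idi1, Fdps, Sqle and Msmo1 all BMP4 points sit clear of the control points, while those of Pmvk, Ggps1 and Ebp overlap.

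Taking the 18 synthesis genes by array, the median log2 value relative to each gene's control mean was 0.36, 0.48 and 0.56 on BMP4 replicates 1, 2 and 3, against -0.02, 0.03 and 0.09 on control replicates 1, 2 and 3. Within the BMP4 group, replicate 3 was the highest array for 12 of these genes, against 31.5% of all genes. Within the controls, replicate 1 was the lowest array for 9 of them, against 33.6% of all genes. Without BMP4 replicate 3 the number of higher synthesis genes was 7, and without control replicate 1 it was also 7, against 11 with all arrays. The same 7 genes were past the test in both cases, namely Hmgcs1, Idi1, Fdps, Sqle, Msmo1, Cyp51 and Hsd17b7. Mvk, Fdft1, Nsdhl and Sc5d lost the call in both, with log2 changes that stayed above 0.

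None of the 5 regulators was past the test on its brightest probe set (limma), with 2 higher and 1 lower at an unadjusted p under 0.05. Srebf2, which encodes the SREBP that chiefly drives cholesterol synthesis, had 682, 665.2 and 852.3 with BMP4, against 526.9, 620.6 and 602.9 in controls. The groups did not overlap, and 2 probe sets gave 0.32 (95% interval 0.09 to 0.54, adjusted p = 0.081) and 0.45 (interval 0.16 to 0.74, adjusted p = 0.0604). Averaged over both probe sets Srebf2 was past the test at 0.38 (adjusted p = 0.0395, with a range of 0.0395 to 0.312 over its alternatives). Srebf1, whose product chiefly drives fatty acid synthesis, had 315.2, 367.6 and 372.3 with BMP4, against 374.3, 336.9 and 339.1 in controls. The arrays were interleaved, and the log2 change was 0.00 (interval -0.19 to 0.19). Scap, the escort of the SREBPs, had 310, 426.7 and 560.3 with BMP4, against 529.6, 628.9 and 456.8 in controls, and its interval was wide (-0.33, -0.72 to 0.06, adjusted p = 0.3).

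The Insig genes, whose products retain Scap, had values of opposite sign. Insig1, itself a known SREBP target, had 674.7, 693.9 and 647.1 with BMP4, against 603.9, 627 and 585.3 in controls. Its groups did not overlap, yet the log2 change was small at 0.15 (95% interval 0.00 to 0.29, limma adjusted p = 0.214). Insig2 had 477.1, 473.2 and 492.1 with BMP4, against 629.8, 583.8 and 533 in controls. All BMP4 arrays were below all control arrays, and the log2 change was -0.26 (interval -0.43 to -0.10, adjusted p = 0.052), just outside the threshold. A dimmer Insig2 probe set, at 193, 201.1 and 165.8 with BMP4 against 307.3, 236.5 and 239 in controls, was past the test at -0.45 (adjusted p = 0.0364), and the remaining one gave -0.16 (adjusted p = 0.261). Insig2 was called lower in 5 of 17 alternatives, with adjusted p-values of 0.0161 to 0.172. The difference between the 2 Insig genes was not tested.

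Of the genes for uptake and movement inside the cell, Stard4 rose. Stard4, a soluble sterol carrier, had 495.3, 455.1 and 512.8 with BMP4, against 366.5, 388.8 and 373.6 in controls. The groups were well apart, and the log2 change was 0.36 ± 0.07 (SE, limma adjusted p = 0.01), and the 2 dimmer probe sets gave 0.65 (adjusted p = 0.0102) and 0.34 (adjusted p = 0.102). Stard4 was not past the test if arrays were centred on their medians or the trend was dropped (adjusted p of 0.00638 to 0.0887 over its alternatives). Npc1, the membrane protein that passes cholesterol out of lysosomes, had 107.1, 108.2 and 111.8 with BMP4, against 86.5, 78.2 and 67.6 in controls. The groups did not overlap, and the change of 0.43 was not past the test (95% interval 0.14 to 0.71, adjusted p = 0.0657). It was past the test in 2 of 17 alternatives, with a range of 0.0292 to 0.182. These were a filter at the 60th percentile (adjusted p = 0.0476) and the fit on the mean of each gene's probe sets (adjusted p = 0.0292). Npc1 had no other probe set, so averaging left its own signals unchanged. Npc2, its soluble partner in the lysosome, was the brightest member, at 6328.4, 7236.2 and 6252.9 with BMP4 and 5259.7, 6199.8 and 6865.8 in controls. These overlapped, with a log2 change of 0.12 (interval -0.13 to 0.37), and 2 other tested probe sets gave 0.14 and 0.04. Scarb1, a receptor for high-density lipoprotein, had 123.7, 139.5 and 112 with BMP4, against 108.7, 122.8 and 132.4 in controls (0.04, interval -0.23 to 0.31). Its 2 other probe sets were near background and gave -0.18 and -0.57, neither past the test.

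The exporters pointed in opposite directions without passing the test, with 1 higher and 1 lower at an unadjusted p under 0.05 (limma). Abca1, which loads cholesterol onto apolipoprotein A-I, had 468.3, 449.6 and 451 with BMP4, against 563.3, 530.3 and 523.7 in controls. Every BMP4 array was below every control array, with a log2 change of -0.23 (95% interval -0.38 to -0.09, adjusted p = 0.0535), and 2 dimmer probe sets gave -0.03 and -0.09 with overlapping groups. Abca1 was called lower in 2 of 17 alternatives, with adjusted p-values of 0.0207 to 0.388. Abcg1, which exports cholesterol to high-density lipoprotein, had 98.7, 83.1 and 51 with BMP4, against 54.1, 30.1 and 49 in controls. BMP4 replicate 3 overlapped the controls, and the log2 change was 0.62 with a wide interval of 0.11 to 1.13 (adjusted p = 0.133). Without that array it was 0.84 and past the test (adjusted p = 0.0437, with a range of 0.0437 to 0.362 over its alternatives). The other Abcg1 probe set was at background.

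**Figure D4:**
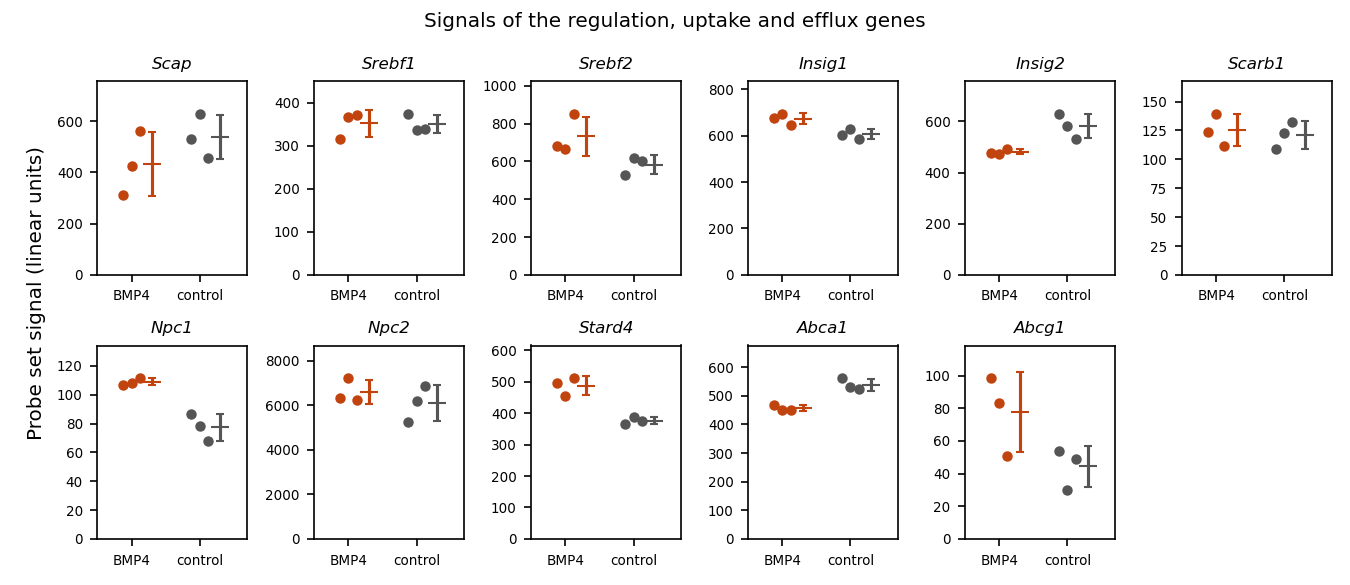
Probe set signal (linear units, axes from 0) of the 11 tested genes of sterol regulation, uptake and transport, and efflux on each BMP4 array (left) and control array (right), with the mean and SD of 3 arrays beside the points. BMP4 points lie above control points for Srebf2, Insig1, Npc1 and Stard4 and below them for Insig2 and Abca1; of these Stard4 was past the test.

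Of 52 further genes of sterol handling that are not members, 43 were tested, and 7 were higher and 4 were lower, with a median log2 change of 0.00. Over all genes 5.03% were higher and 5.66% were lower. Cav1, the scaffold of cholesterol-rich caveolae, had 490.9, 537.4 and 738.1 with BMP4, against 359.9, 428.4 and 380.5 in controls (log2 0.56, limma adjusted p = 0.0218). Stard3, which moves cholesterol at the late endosome, had 485.4, 421.8 and 443.9 with BMP4, against 325.4, 317.2 and 321.8 in controls (0.46, adjusted p = 0.00256). Lipa, the lysosomal lipase that frees cholesterol from its esters, had 1623, 1751.5 and 1948.9 with BMP4, against 1250.2, 1341.9 and 1312.1 in controls (0.44, adjusted p = 0.00484). Groups of these 3 genes did not overlap. Abcg4, a transporter related to Abcg1, gave 0.44 (adjusted p = 0.0452), and Mylip, a ubiquitin ligase induced by liver X receptors, gave 0.40 (adjusted p = 0.0227). In the list of SREBP processing and sterol-regulated degradation 0 of 7 genes were higher and 2 were lower (limma, 0 higher and 4 lower at an unadjusted p under 0.05). The genes of the proteases that cut SREBPs were not past the test (limma adjusted p = 0.0711 and 0.448). Higher and lower calls were 2 and 0 of 4 liver X receptors and targets, and 0 and 1 of 9 genes of isoprenoid branches. They were 2 and 0 of 8 other sterol enzymes and electron donors, and 3 and 1 of 15 sterol transport genes and lipoprotein receptors. These calls were fragile, since with median centring 1 of the 43 was higher and 8 were lower, without the intensity trend 1 and 0 were, without a filter 2 and 1 were, and without control replicate 1 or control replicate 3 they were 2 and 4, or 3 and 0. Without any 1 BMP4 array or control replicate 2, 4 to 6 were higher and 1 was lower.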

How the data were processed

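The authors deposited 1 linear signal intensity per probe set and array, and the submitters' processing notes name GCOS 1.3. RNA carried a biotin label, per the labels. How background was corrected and arrays were scaled is not stated in those sources, and the table has no detection calls. Groups and replicate numbers came from the sample titles. After removal of 64 control probe sets, log2(signal + 16) was computed. Probe sets with a mean log2 value above the 40th percentile (a signal of about 23.5) were kept, 27022 in all. The test was that of limma 3.58.1, run in R 4.3.3 with lmFit and two-sided eBayes trended on intensity, and p-values were adjusted by Benjamini-Hochberg over all kept probe sets. Fold changes are on the signal + 16 scale, which understates changes of dim genes. A gene was represented by its brightest kept probe set with 1 symbol. Each log2 change carries limma's moderated SE over 3 arrays per group, a number that limits the precision. The members and lists were chosen with earlier results of these data known. All 31 members may be named, as may the 5 called genes of the further list with the largest changes. Promoters were to be shown for members that hold the sterol response motif, which only Hmgcs1 did. Those of Msmo1 and Abca1 lack it and were added after their values were seen. Alternatives were other pseudocounts (1 and 64), filters (none, 60th percentile), scalings and variance models, a replicate block, the mean of a gene's probe sets, and leaving out each array.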

Additional observations from a re-analysis of the deposited data

How the results depend on the processing

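Of the 12 higher members 5 were past the test under all 17 alternatives, and no member's call changed direction. Leaving out 1 array at a time gave 1622 (without control replicate 2) to 1996 changed probe sets, against 2464 with all arrays, 8 to 11 higher members, 0 to 1 lower members, 7 to 10 higher synthesis genes, and 2 to 6 higher and 0 to 4 lower further sterol genes. With median centring 5 members were higher and 2 (Insig2 and Abca1) lower, 5 synthesis genes were higher, and further sterol genes numbered 1 higher and 8 lower. Without the intensity trend 1422 probe sets changed, 5 members and 5 synthesis genes were higher, and further genes numbered 1 and 0. Members called lower numbered 1 (Insig2) with a pseudocount of 64 or the mean of the gene's probe sets, and 2 with a filter at the 60th percentile. Without a filter the further genes numbered 2 and 1, and with cyclic loess 7 were lower. Same-numbered arrays had deviations correlated at 0.0102, -0.00261 and -0.0725, so the numbers were not taken to pair samples; with a replicate block 2090 probe sets changed, 12 members were higher, and 2 further genes were lower. No BMP4 array correlated best with the control of its own number. The cause of these shifts was not tested. Low signal limits what can be said of Abcg1 and of the dimmer Scarb1 probe sets.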
